A study of Mus musculus with 10 samples.

Results

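Hox genes code for homeodomain transcription factors and lie in 4 clusters, Hoxa to Hoxd. On the array, 39 Hox genes were represented by 44 probes, out of 35527 gene names in all. Members were all names made of Hox, a cluster letter from a to d and a paralog number. The Hoxa cluster held 11 of them, Hoxb 10, Hoxc 9 and Hoxd 9.

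Within each cluster the genes are numbered by paralog group, from the 3′ end to the 5′ end. In the embryo, low-numbered genes are switched on early and up to the head end, and high-numbered genes late and towards the tail, so that the set of Hox genes a cell expresses records its position along the body. Adult smooth muscle cells and fibroblasts keep part of this record, and the abdominal aorta, where most aneurysms form, lies far along the axis. Hox proteins bind DNA through the homeodomain, often together with PBX and MEIS cofactors, and Polycomb and Trithorax complexes keep the clusters silent or active.

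The study compared infrarenal aorta of male C57BL/6J mice, aged 10 weeks, 7 days after surgery. In 5 PPE mice the aorta had been infused for 5 min at 100 mmHg with porcine pancreatic elastase at 1.5 U/mL, which degrades elastin so that an abdominal aortic aneurysm (AAA) forms, and in 5 sham mice with saline alone at the same pressure and time. Both groups had ligatures and an aortotomy, and the aorta was taken from the left renal artery down to the bifurcation. Each array carried RNA of 1 aorta in red (Cy5) and a universal mouse reference, pooled from cell lines, in green (Cy3). Dyes were not swapped, and the authors left some arrays of the study out of their analysis. A value here is the log2 ratio of aorta over reference of 1 array after loess, and n is 5 arrays per group, except for the macrophage gene Lyz2, which had no value on PPE 1.

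Whether a spot is well above background is the scanner software's own test against the local background. In the red channel this held for 37.6% of spots on sham 5 up to 65.8% on PPE 1. The tissue label was checked against markers. All 8 smooth muscle genes looked at were above background, and their mean log2 ratio lay between 3.22 and 4.39 on the sham arrays. These 8 were called higher than the reference at a limma adjusted p under 0.01, as were 5 of 6 endothelial genes (mean log2 ratio 2.21 to 3.21), 5 of 6 fibroblast genes (3.20 to 3.87) and all 5 adipocyte genes (4.80 to 5.93), the exceptions being Kdr at -0.07 and Pdgfra at -0.18. All 4 skeletal muscle genes tested (1.96 to 4.92) and 3 of 4 nerve genes (0.59 to 3.03) were also called higher, where 26.9% of all names tested were. Centring each array on its median in place of loess left 6 smooth muscle, 3 endothelial, 4 fibroblast, 5 adipocyte and 1 skeletal muscle gene called higher, and 0 nerve genes (limma, 3 at an unadjusted p under 0.05), with Kdr and Pdgfra called lower. Of 4 kidney genes, Slc34a1 (-0.15) and Lrp2 (-0.14) had enough signal to be tested, and neither was called. Hox values below are those of the whole dissected segment, not of 1 cell type.

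The first question was which paralog groups give signal above background in the infrarenal aorta. Of the 39 Hox genes, 31 (79.5%) gave red signal well above background on 5 or more of the 10 arrays, against 63.4% of all names. For 23 of these (59.0%, against 42.8% of all names) this held on all 10 arrays. The 8 others were above background on 0 arrays in the probe that stands for them. Genes of the middle of the clusters were above background throughout. All 11 members of paralog groups 5 to 8 passed, as did all 4 of group 9 and all 3 of group 10. The gaps were at the ends. In group 1, which patterns the hindbrain, Hoxb1 and Hoxd1 were on 0 arrays. In groups 12 and 13, which pattern the hindgut, genital region and digits, Hoxa13, Hoxb13, Hoxc12, Hoxd12 and Hoxd13 were on 0.

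**Figure D1:**
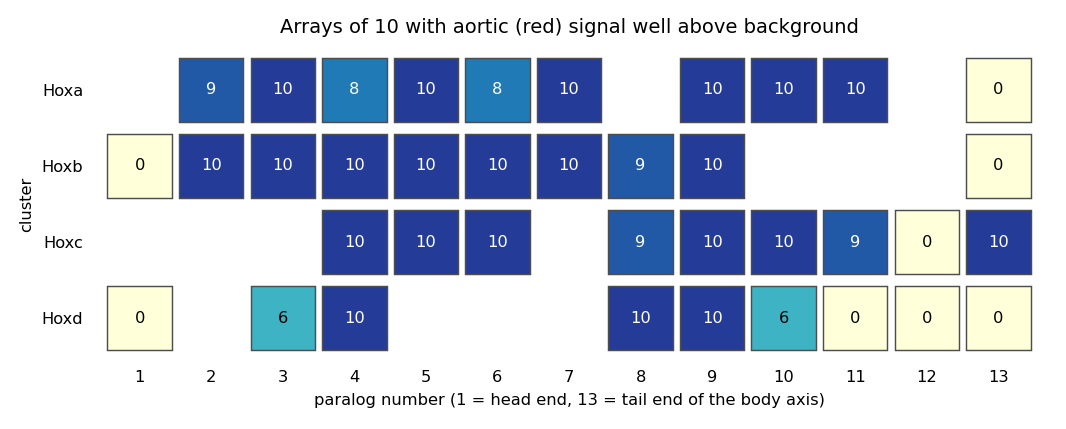
Hox genes on the array by cluster (rows) and paralog number (columns), with the number of arrays out of 10 on which aortic red signal was well above background. The 38 genes drawn are shown as squares. Values of 0 lie at both ends of the paralog numbers, and all 11 members of groups 5 to 8 lie at 8 to 10.

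The tail-end gap had an exception. Hoxc13, known for its part in hair and nail formation, was above background on all 10 arrays, and Hoxc10 and Hoxc11 on 10 and 9. The Hoxd cluster was the sparsest, with 5 of 9 members above background, against 10 of 11 in Hoxa, 8 of 10 in Hoxb and 8 of 9 in Hoxc. Hoxd11, at 0 arrays on the probe that stands for it, was above background on 1 PPE array on another probe. Hoxd3 and Hoxd10 passed on 6 arrays each, 2 sham and 4 PPE.

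For genes with no red signal above background the reference channel tells whether the probe can give signal. Hoxb13, which marks prostate and hindgut, was well above background in the green channel on all 10 arrays and in the red channel on 0. Its reference level was at least 3.99-fold that of sham aorta, a bound on channel values after loess and Aquantile, open to dye bias since dyes were not swapped (limma adjusted p 0.00065, fitted log2 ratio -2.08 ± 1.05 SD). Hoxc12 was above background in green on 1 array. Hoxa13, Hoxb1, Hoxd1, Hoxd11, Hoxd12 and Hoxd13 had no green signal above background on any array in the probe that stands for them, so these arrays hold no sample that shows those probes at work.

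The second question was how the Hox genes of sham aorta compare with the reference. Since a ratio depends on what the pooled cell lines express, the order of ratios between genes is no order of levels in the aorta. Of 31 Hox genes tested, 14 were higher in sham aorta and 7 lower, at a limma adjusted p under 0.01. That is 45.2% and 22.6%, where 26.9% and 27.7% of all names tested were called. Hoxb13, among the 7, passed the filter only through the reference channel, where it is high, so its call carries no weight. Adjusted p-values below are those of limma over all names tested.

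**Figure D2:**
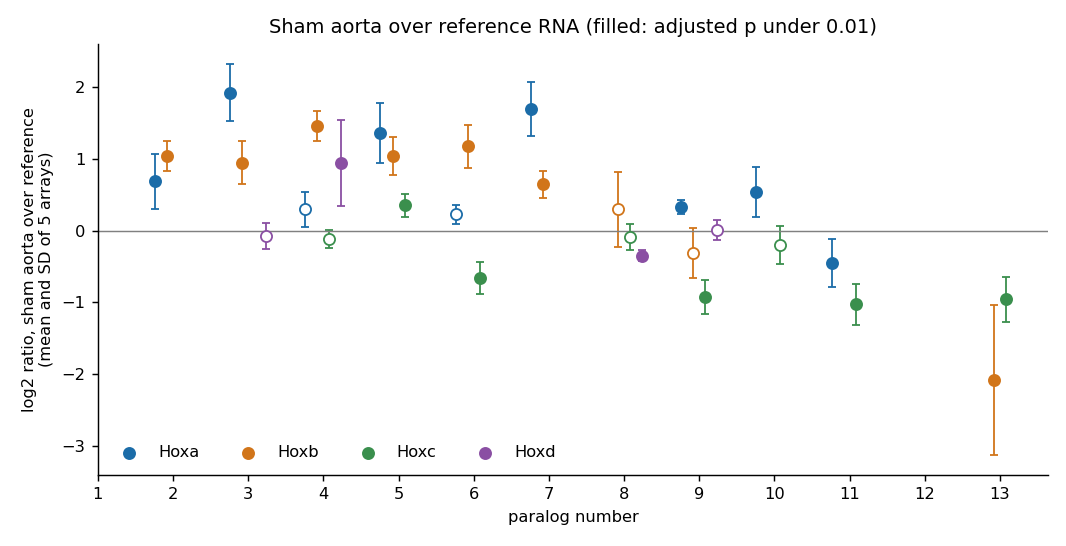
Log2 ratio of sham aorta over reference (vertical axis) by paralog number (horizontal axis) for 30 Hox genes tested, coloured by cluster. Points are means of 5 arrays with SD, and filled points passed an adjusted p under 0.01. Filled points above 0 lie at paralog numbers 2 to 10, and those at 11 and 13 are all below 0 (under median centring 0 genes are called above 0). Hoxb13 passed the filter only through the reference.

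In the Hoxa cluster the ratio was highest for Hoxa3, a gene needed for the thymus, parathyroid and neck arteries, at 1.93 ± 0.40 (mean ± SD). It was 1.69 ± 0.38 for Hoxa7 and 1.37 ± 0.42 for Hoxa5, which takes part in lung and fat development. Hoxa2 (0.69), Hoxa10 (0.54) and Hoxa9 (0.34) were called higher as well, the last 2 turning below 0 under median centring. Hoxa4 (0.30, adjusted p 0.0143) and Hoxa6 (0.23) were not called. Hoxa11, which patterns the middle of the limb and the uterus, was lower in aorta than in the reference, at -0.45 ± 0.33.

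In the Hoxb cluster 6 genes in a row were higher in aorta, of which Hoxb2, Hoxb6 and Hoxb7 turned below 0 under median centring. The ratios were 1.04 ± 0.21 for Hoxb2, 0.95 ± 0.30 for Hoxb3, 1.46 ± 0.21 for Hoxb4, 1.04 ± 0.27 for Hoxb5, 1.18 ± 0.30 for Hoxb6 and 0.65 ± 0.19 for Hoxb7. Hoxb8 (0.30 ± 0.52) and Hoxb9 (-0.31 ± 0.35) were not called. On the sham arrays Hoxb8 ran from -0.37 on sham 4 to 0.92 on sham 5, on both sides of the reference.

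In the Hoxc cluster most ratios lay below 0. Hoxc6 (-0.66 ± 0.22), Hoxc9 (-0.92 ± 0.24), Hoxc11 (-1.03 ± 0.29) and Hoxc13 (-0.95 ± 0.31) were lower in aorta, and Hoxc5 (0.35 ± 0.16, but -0.10 under median centring) was higher. Hoxc4 (-0.11), Hoxc8 (-0.09) and Hoxc10 (-0.19) were not called. In the Hoxd cluster, Hoxd4 was higher, at 0.94 ± 0.60, and Hoxd8 lower, at -0.35 ± 0.08. Hoxd3 (-0.08) and Hoxd9 (0.01) were not called, and Hoxd10, at 0.09, was above background on only 2 sham arrays in each channel and was not tested.

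By paralog number, groups 1 to 4 had a median log2 ratio of 0.82 (6 of 10 genes higher, 0 lower), groups 5 to 8 of 0.35 (6 of 11 higher, 2 lower) and groups 9 to 13 of -0.38 (2 of 10 higher, 5 lower). Over the 31 genes, the ratio and the paralog number had a Pearson r of -0.62 and a Spearman rho of -0.58. These are given as a description, since the genes share the 5 arrays and the reference. Hoxb13 (-2.08), among the 5 lower in groups 9 to 13, passed the filter only through the reference, where it is high. The median of those groups, r and rho were not computed without it. Centring each array on its median, in place of loess, shifted the median of all names to -0.73, and then 0 Hox genes were called higher (limma, also 0 at an unadjusted p under 0.05) and 10 lower. Relative to that shifted median, 29 of the 31 Hox genes lay on the side they had after loess, all but Hoxc8 and Hoxd3.

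The third question was what changed as the aneurysm formed. Of 31 Hox genes tested between PPE and sham, 4 fell, 2 rose and 25 did not pass a limma adjusted p of 0.01, while median centring in place of loess left none of these calls. The 4 that fell, Hoxa3, Hoxa5, Hoxa7 and Hoxb5, were 12.9% of the Hox genes tested, against 9.96% of all names. The 2 that rose, Hoxd3 and Hoxd8, were 6.45%, against 13.8% of all names. Hoxd3, like Hoxd10, passed the filter on red signal mainly through the PPE arrays, where it is high, and without these 2 genes 1 of 29 was called higher and 4 lower. The groups did not overlap in 7 Hox genes (22.6%), among them Hoxd3 and Hoxd10, against 25.5% of all names. These shares lay near or below those of all names, apart from the slightly larger share that fell. In these bulk samples, fewer cells of a type and less RNA per cell cannot be told apart.

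Hoxa7, a gene of the trunk region, fell most. Its log2 ratio was 2.05, 1.83, 1.13, 1.51 and 1.95 on sham 1 to 5, and -0.02, 0.17, 0.40, 0.10 and 0.78 on PPE 1 to 5. Every PPE array lay below every sham array, and after loess PPE values were near the level of the reference. Under median centring the sham ratio was 0.26 and the change -0.73. PPE minus sham was -1.41 on the log2 scale (SE 0.20, adjusted p 0.000238 by limma), a 2.65-fold decrease. Its probe lies on chromosome 6 from 52165626 to 52165685 (mm9, as the files give it).

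Hoxa3 read 2.23, 2.0, 1.23, 2.18 and 2.0 on sham 1 to 5 and 0.52, 1.11, 0.83, 0.35 and 1.11 on PPE 1 to 5. The groups did not overlap, but sham 3 came close to the highest PPE arrays, PPE 2 and PPE 5. This gave a log2 fold change of -1.14 (SE 0.22; adjusted p by limma, 0.00153). After loess all 5 PPE arrays still lay above the reference. The Hoxa3 probe spans 52119087 to 52119146 on chromosome 6.

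Hoxa5 read 1.82, 1.43, 1.0, 1.72 and 0.87 on the sham arrays and 0.46, 0.76, 0.66, 0.40 and 0.35 on the PPE arrays, in order of replicate number. The groups did not overlap, with the lowest sham array, sham 5, just above PPE 2. The change was -0.84 in log2 units (SE 0.19, adjusted p by limma 0.00473), and the call of Hoxa5 was lost without sham 1, 2 or 4 or PPE 1, 4 or 5, with a limma adjusted p of up to 0.0143. Its probe spans 52152049 to 52152108 on chromosome 6.

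Hoxb5, a paralog of Hoxa5 that takes part in the formation of endothelial and enteric nerve precursors, read 1.34, 0.83, 0.92, 1.33 and 0.80 on sham 1 to 5. On PPE 1 to 5 it read 0.43, 0.55, 0.36, 0.10 and 0.05, all below the sham arrays. The difference PPE minus sham was -0.75 on the log2 scale (SE 0.15, by limma at an adjusted p of 0.00243). The Hoxb5 probe spans 96167130 to 96167189 on chromosome 11. The paralog in the Hoxc cluster, Hoxc5, changed by -0.31 and was not called, so that all 3 members of group 5 lay below 0.

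**Figure D3:**
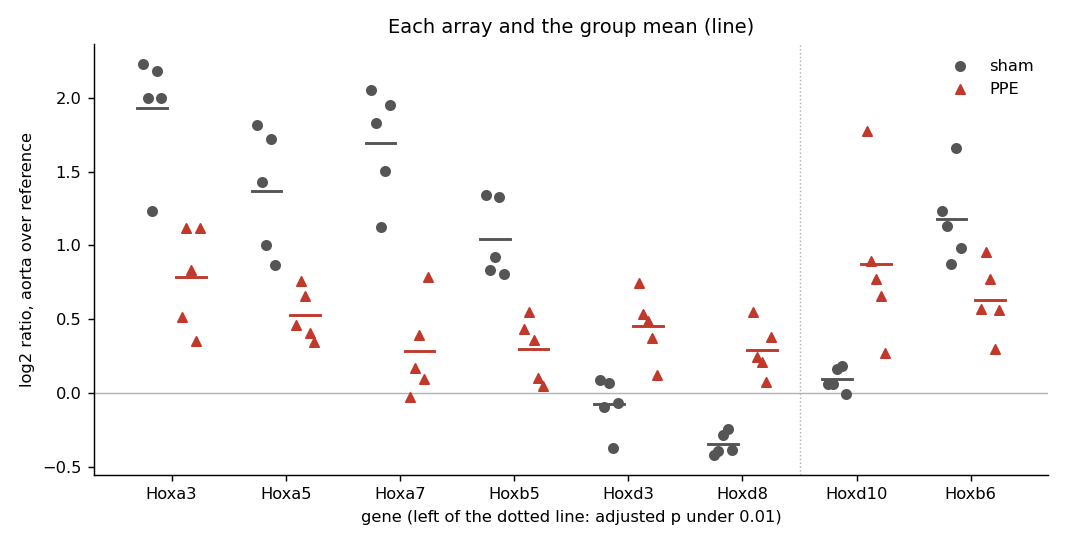
Log2 ratio of aorta over reference on each array (circles, sham; triangles, PPE; lines, group means of 5) for the 6 Hox genes called between PPE and sham and, right of the dotted line, the 2 that came closest without passing. For Hoxa3, Hoxa5, Hoxa7 and Hoxb5 all triangles lie below all circles, and for Hoxd3, Hoxd8 and Hoxd10 all lie above.

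After loess, Hoxd8 rose from below the reference to above it. The place of 0 depends on the scaling, and under median centring the sham ratio was -1.39 and the change 1.06. It read -0.42, -0.40, -0.28, -0.24 and -0.39 on sham 1 to 5 and 0.55, 0.24, 0.21, 0.08 and 0.38 on PPE 1 to 5. The sham arrays lay close together and all below the PPE arrays. PPE minus sham was 0.64 on the log2 scale (SE 0.11, adjusted p 0.000786 by limma), a 1.56-fold increase. Its probe spans 74545171 to 74545230 on chromosome 2 (mm9).

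Hoxd3, known for promoting the invasive state of endothelial cells, read 0.09, -0.09, 0.07, -0.37 and -0.07 on sham 1 to 5 and 0.75, 0.54, 0.49, 0.38 and 0.12 on PPE 1 to 5. The groups did not overlap, and PPE 5, the PPE array with the lowest share of red spots above background (45.8%), lay just above sham 1. This gave a log2 fold change of 0.53 (SE 0.14; adjusted p by limma, 0.00981). Its red signal was above background on only 2 sham and 4 PPE arrays, and the call was kept in 1 of 10 fits that left out an array, the one without PPE 5, with a limma adjusted p of up to 0.0260 in the others. The Hoxd3 probe spans 74585787 to 74585846 on chromosome 2.

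Hoxd10, which keeps endothelium in a resting state, had the largest rise among Hox genes without passing. It read 0.06, 0.06, 0.16, 0.18 and -0.01 on the sham arrays and 1.78, 0.90, 0.77, 0.65 and 0.27 on the PPE arrays. All PPE arrays lay above all sham arrays, with a wide spread among them led by PPE 1. The change was 0.78 in log2 units (SE 0.23, adjusted p by limma 0.0187), with red signal above background on 2 sham and 4 PPE arrays. Without PPE 5 it was called, with a limma adjusted p of 0.00442.

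Hoxb6 read 1.24, 1.13, 0.87, 1.66 and 0.99 on sham 1 to 5 and 0.57, 0.96, 0.77, 0.30 and 0.56 on PPE 1 to 5. Only PPE 2 reached into the sham range. The difference PPE minus sham was -0.55 on the log2 scale (SE 0.17, by limma at an adjusted p of 0.0248). For Hoxc5 the arrays read 0.33, 0.33, 0.32, 0.61 and 0.17 in sham and -0.01, -0.07, 0.33, -0.10 and 0.08 in PPE, and PPE 3 lay within the sham range (log2 fold change -0.31, limma adjusted p 0.0643).

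Hoxa9, which in endothelial cells takes part in the control of adhesion molecule genes, read 0.35, 0.27, 0.23, 0.49 and 0.34 in sham and 0.07, 0.34, 0.04, -0.10 and -0.02 in PPE. PPE 2 overlapped the sham arrays, and the change was -0.27 (SE 0.11, adjusted p by limma 0.0747). A second Hoxa9 probe gave -0.56. Hoxb8, which can hold myeloid progenitors in an immature state, read 0.30, 0.69, -0.03, -0.37 and 0.92 in sham and -0.59, -0.45, -0.09, 0.06 and -0.20 in PPE, with overlap (log2 fold change -0.55, limma adjusted p 0.0906).

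**Figure D4:**
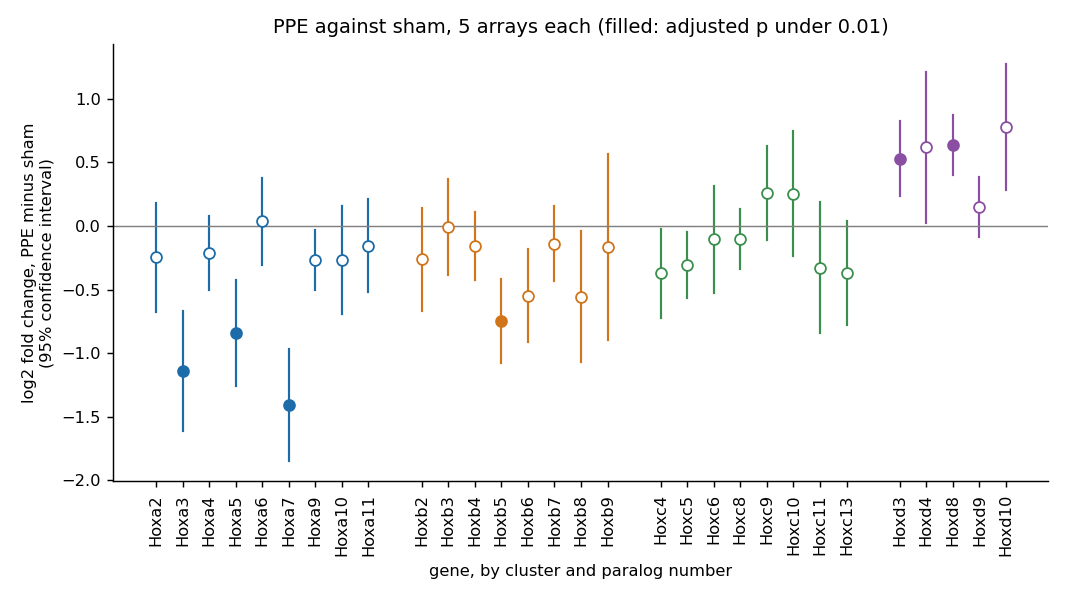
Log2 fold change of PPE against sham (vertical axis) with its 95% confidence interval for 30 Hox genes tested, ordered by cluster and paralog number, from 5 arrays per group. Filled points passed an adjusted p under 0.01. In the Hoxa and Hoxb clusters 16 of the 17 points drawn lie below 0, of which median centring leaves 7 there. In the Hoxd cluster all 5 lie above 0, 2 of them (Hoxd3 and Hoxd10) with red signal above background on only 2 sham arrays.

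After loess most Hoxa and Hoxb values lay below 0, while under median centring of arrays 5 of 10 Hoxa and 2 of 8 Hoxb genes did. In Hoxa, 9 of 10 genes had a negative log2 fold change, 3 of them called, with a median of -0.27. The genes not yet given were Hoxa2 (-0.24), Hoxa4 (-0.21), Hoxa6 (0.04), Hoxa10 (-0.27) and Hoxa11 (-0.15). In Hoxb, all 8 were negative and 1 was called, with a median of -0.21, among them Hoxb2 (-0.26), Hoxb3 (-0.01), Hoxb4 (-0.15), Hoxb7 (-0.14) and Hoxb9 (-0.16). The median over all names tested was 0.02.

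In Hoxc, 6 of 8 were negative and 0 were called by limma or SAM (2 lower at an unadjusted p under 0.05), with a median of -0.21. Hoxc4 (-0.37), Hoxc6 (-0.11), Hoxc8 (-0.10), Hoxc11 (-0.33) and Hoxc13 (-0.37) lay below 0, and Hoxc9 (0.26) and Hoxc10 (0.26) above. In Hoxd, the 3 genes that did not pass the filter mainly through the PPE arrays were Hoxd8, which was called, Hoxd4, at 0.62 (limma adjusted p 0.101), and Hoxd9, at 0.15. A difference between clusters was not tested, since the genes of a cluster are not replicates.

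Values of paralogs of 1 group lay on both sides of 0. In group 3, Hoxa3 fell by 1.14 on the log2 scale and Hoxd3 rose by 0.53, while Hoxb3 stood at -0.01. In group 8, Hoxd8 rose by 0.64 while Hoxb8 and Hoxc8 stood at -0.55 and -0.10, neither called. In group 10, Hoxd10 (0.78) and Hoxc10 (0.26) lay above 0 and Hoxa10 (-0.27) below. Hoxd3 and Hoxd10 passed the filter mainly through the PPE arrays, where they are high, so their place above 0 carries no weight. Among groups with 2 or more members tested, groups 2, 5, 7 and 11 lay below 0 throughout after loess, with Hoxb7 at -0.14 beside Hoxa7. Under median centring Hoxb7 was at 0.44, Hoxb2 at 0.23 and Hoxa11 at 0.27, and the other members of these groups stayed below 0. Whether paralogs differ in their change was not tested. Over the 31 genes, the change had a Pearson r of 0.16 with the paralog number and a Spearman rho of 0.15, as a description. Hoxd3 and Hoxd10 are among the 31, and r and rho were not computed without them.

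Of the 6 calls, none was kept when arrays were centred on their median in place of loess, a setting that moved the median of all names to 0.41 and left 408 higher and 8 lower of them. Relative to that shifted median, Hoxa7 lay at -1.14, Hoxa3 at -0.93, Hoxa5 at -0.78, Hoxb5 at -0.66, Hoxd8 at 0.65 and Hoxd3 at 0.03. Of the 18 Hoxa and Hoxb genes, 16 lay below it, all but Hoxb4 and Hoxb7, and of the 5 Hoxd genes 4 lay above it, all but Hoxd9. Among these 4 are Hoxd3 and Hoxd10, which passed the filter mainly through the PPE arrays, where they are high.

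Arrays of both groups shared slides 1 (sham 1, PPE 1 and PPE 2) and 2 (sham 2, sham 3, PPE 3 and PPE 4). Slide 1 was scanned on a different day from all other slides, so scan day and slide 1 cannot be told apart. Within each slide all 6 called genes kept their sign. This had to be so, since their groups do not overlap, and it is no check on the slides. On slides 1 and 2, the difference was -1.98 and -1.23 for Hoxa7, -1.42 and -1.02 for Hoxa3, -1.21 and -0.68 for Hoxa5, and -0.85 and -0.65 for Hoxb5. It was 0.82 and 0.48 for Hoxd8 and 0.55 and 0.45 for Hoxd3. Of the 31 genes, 25 had the sign of the pooled change on both slides. With slide as a block, Hoxd3 was no longer called. Slides 3, 4 and 5 held 1 array each (sham 4, sham 5 and PPE 5), which gives no value within the slide. Hoxa3, Hoxa7, Hoxb5 and Hoxd8 were called in all 10 fits that left out an array.

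To show what lies before the genes that moved, the 250 bases upstream of the start were taken from RefSeq (GRCm38.p6, windows matched for 22 of the 39 genes). Both strands were searched for the core letters TATAAA. The CDX proteins, which set Hox expression along the axis, bind TTTATG. A pair of PBX and HOX proteins binds TGATNNAT, and MEIS binds TGACAG. The reverse of TATAAA shares all but its last letter with TTTATG. Capitals below mark the matches, and positions count back from -1, the base before the start. The first 3 sequences belong to genes that fell and the other 2 to genes that rose.

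Hoxa7, chr6:52218574-52218823, minus strand: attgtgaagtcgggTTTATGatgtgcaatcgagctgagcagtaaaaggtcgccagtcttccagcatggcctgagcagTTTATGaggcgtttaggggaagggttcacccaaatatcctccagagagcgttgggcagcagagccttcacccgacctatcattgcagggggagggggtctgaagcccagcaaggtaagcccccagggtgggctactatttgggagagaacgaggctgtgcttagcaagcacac

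Hoxa3, chr6:52213068-52213317, minus strand: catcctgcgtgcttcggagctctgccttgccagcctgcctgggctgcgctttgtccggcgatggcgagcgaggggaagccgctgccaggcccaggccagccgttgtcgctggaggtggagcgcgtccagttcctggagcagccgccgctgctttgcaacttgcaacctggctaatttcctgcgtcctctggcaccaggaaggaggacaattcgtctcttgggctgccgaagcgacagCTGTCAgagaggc

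Hoxa5, chr6:52204588-52204837, minus strand: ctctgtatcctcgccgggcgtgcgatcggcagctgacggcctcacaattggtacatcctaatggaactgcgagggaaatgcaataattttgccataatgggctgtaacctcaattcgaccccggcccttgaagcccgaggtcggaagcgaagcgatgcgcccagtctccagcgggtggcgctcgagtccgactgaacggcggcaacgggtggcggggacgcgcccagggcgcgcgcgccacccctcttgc

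Hoxd8, chr2:74704365-74704614, plus strand: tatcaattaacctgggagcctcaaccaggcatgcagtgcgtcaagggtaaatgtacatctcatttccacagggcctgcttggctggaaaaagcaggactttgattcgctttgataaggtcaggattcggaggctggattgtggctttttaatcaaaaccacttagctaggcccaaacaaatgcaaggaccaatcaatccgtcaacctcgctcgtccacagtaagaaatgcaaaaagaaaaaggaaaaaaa

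Hoxd3, chr2:74711743-74711992, plus strand: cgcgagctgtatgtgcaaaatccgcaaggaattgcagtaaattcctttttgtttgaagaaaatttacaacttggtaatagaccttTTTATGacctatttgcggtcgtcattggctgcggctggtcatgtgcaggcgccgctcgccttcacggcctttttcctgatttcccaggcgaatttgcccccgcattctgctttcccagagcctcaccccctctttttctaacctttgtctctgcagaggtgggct

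Hoxa7 held TTTATG in 2 places, from -236 and from -173, and Hoxd3 held it from -165, so that a gene that fell and a gene that rose share it. The motif was in 5 of 24 Hox windows (20.8%), Hoxa7, Hoxb8, Hoxd3, Hoxd4 and Hoxd11, and in 10.8% of the 32851 windows of all genes. Hoxa3 held TGACAG on the reverse strand from -13, a motif in 2 Hox windows and 15.9% of all. Hoxa5 and Hoxd8 held none of the 4. The TATAAA core was in 4 Hox windows (12.4% of all) and TGATNNAT in 4 (7.68% of all), none of them printed here. A longer form of the CDX motif, TTTATNG, searched first, was in the windows of Hoxb8 and Hoxd4 alone among Hox genes (9.81% of all), and in Hoxb8 it overlapped TATA boxes. The Hoxa5 and Hoxa3 windows were rich in G and C, at 63.6% and 64.8%, and the Hoxd8 window was at 44.4%, against a median of 58.6% over Hox windows and 52.4% over all. These are matches of letters and show no binding.

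In the same annotation the start given for Hoxa3 lies among those of its neighbours with higher numbers, in the order Hoxa5, Hoxa6, Hoxa3 and Hoxa7 along chromosome 6. The starts given for the 3 Hoxa genes that fell thus lie within 13986 bases. Their probes lie further apart (mm9), from 52119087 for Hoxa3, 52152049 for Hoxa5 and 52165626 for Hoxa7. The Hoxa4 probe, from 52140287, lies between those of Hoxa3 and Hoxa5, and Hoxa4 (-0.21) was not called. Hoxa6, with a start between those of Hoxa5 and Hoxa7, changed by 0.04. Its red signal was above background on 8 of 10 arrays, with a log2 ratio of 0.23 ± 0.14 in sham and 0.26 ± 0.33 in PPE, and these ranges overlapped. The starts given for Hoxd8 and Hoxd3 lie 7378 bases apart on chromosome 2. That of Hoxd3 (74711993) comes before the start given for Hoxd4 (74721978), out of paralog order. The Hoxd3 probe lies beyond the Hoxd4 probe (from 74585787 and from 74566866, mm9). Whether the windows printed for Hoxa3 and Hoxd3 belong to the RNA that the probes read was not tested.

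Hoxb3 had 2 probes that disagreed. The one that stands for the gene, as the brighter, changed by -0.01, and the other by -0.47. The files list a Hoxd3 transcript beside Hoxb3 for the second.

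The only probe of Hoxc11 lies in the homeobox, the stretch in which Hox genes are most alike, and is printed here for that reason. Capitals mark 24 bases that code for a part of the third helix of the homeodomain, which contacts DNA.

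Hoxc11, chr15:102787022-102787081 (mm9), plus strand: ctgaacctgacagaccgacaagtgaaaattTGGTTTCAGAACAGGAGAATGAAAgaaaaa

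Hoxc11 was lower in sham aorta than in the reference and changed by -0.33 under PPE, and binding of RNA from other Hox genes was not tested.

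The proteins that work with Hox factors were read next, from lists chosen with earlier results of these data known. Of 8 TALE cofactors tested, 2 rose (25%) and 1 fell (12.5%), against 13.8% and 9.96% of all names, with a median log2 fold change of 0.29. Pbx2 rose from -0.47 ± 0.11 in sham to 0.45 ± 0.15 in PPE (log2 fold change 0.91, limma adjusted p 5.52e-05). Meis3 rose by 1.08 on the probe that stands for it, but 2 other Meis3 probes gave -0.11 and -0.15, and the mean of its probes, 0.27, was not called. Meis1 fell from 1.27 ± 0.31 to 0.50 ± 0.33 (log2 fold change -0.77, limma adjusted p 0.0074), with overlap, and its call was kept in 3 of 10 fits that left out an array, those without sham 3, PPE 2 or PPE 5. Meis2 (-0.31), Pbx3 (0.35), Pknox1 (0.27) and Pknox2 (0.32) were not called, and Pbx4 was not tested.

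Of 26 Polycomb genes tested, 3 rose (11.5%) and 1 fell (3.85%), both below the shares of all names, 13.8% and 9.96%. Ezh2, the enzyme that methylates histone H3 at lysine 27, rose by 1.35 (limma adjusted p 0.000134), and its partners Eed and Jarid2 by 0.58 and 0.90, each with no overlap of the groups. Cbx6, a Polycomb chromobox protein, fell by 0.85 on the log2 scale. The median over the list was 0.09. Of 13 Trithorax and H3K27 demethylase genes tested, 0 were called by limma, with a median of 0.17. At an unadjusted p under 0.05 there were 3 higher and 3 lower, and by SAM 3 and 2. A second and a further Cbx6 probe gave -0.71 and -0.35.

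Of 14 genes of the Cdx and retinoic acid list, which set Hox expression in the embryo, 3 rose (21.4%, against 13.8% of all names) and 2 fell (14.3%, against 9.96%). The retinoic acid binding protein Crabp2 rose by 2.08, the retinoic acid synthesis enzyme Aldh1a2 by 2.36 and the receptor Rara by 0.88. Cyp26b1, which degrades retinoic acid, fell by 1.08, and the synthesis enzyme Aldh1a1 by 0.97, both with overlapping groups, and the calls were kept in 2 (without sham 3 or PPE 5) and 5 (without sham 2, sham 3, PPE 1, PPE 2 or PPE 5) of 10 fits that left out an array. Cdx2 and Cdx4 were above background on 0 arrays and Cdx1 on 1, and Cyp26a1 and Cyp26c1 were not tested either. Of the genes called in these lists, only Crabp2 kept its call under median centring (limma adjusted p 0.00435).

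**Figure D5:**
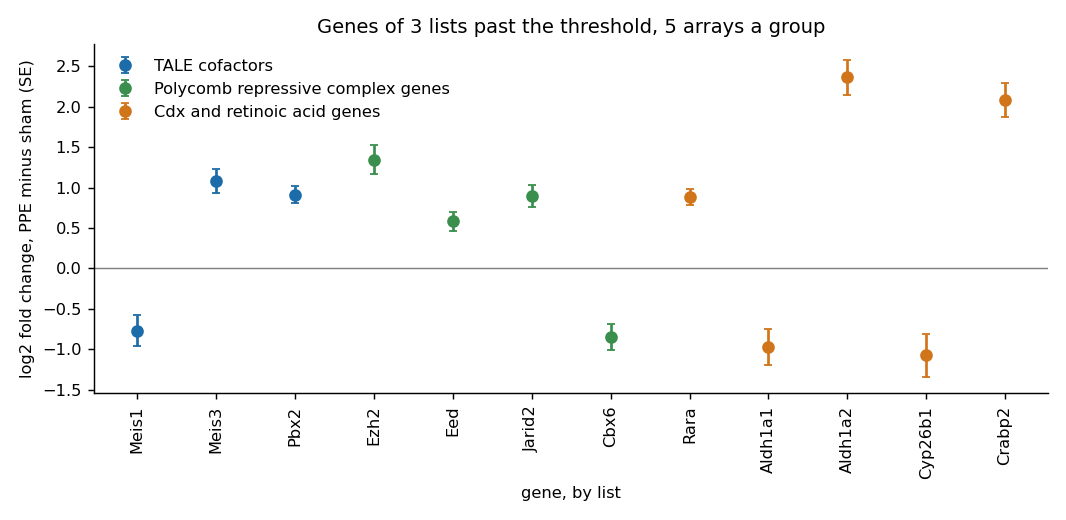
Log2 fold change of PPE against sham (points, with SE, 5 arrays per group) for the genes of the TALE cofactor, Polycomb and Cdx and retinoic acid lists that passed an adjusted p under 0.01. Aldh1a2 and Crabp2 lie above 2, and Meis1, Cbx6, Aldh1a1 and Cyp26b1 lie below 0.

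Next to the clusters, 13 genes that are not Hox genes were tested, of which 3 rose (23.1%, against 13.8% of all names) and 2 fell (15.4%, against 9.96%). Under median centring 0 of them were called (limma, with 5 higher and 0 lower at an unadjusted p under 0.05), with adjusted p-values from 0.0152 for Skap1 to 0.649 for Hibadh among the 5. Skap2, beyond the 3′ end of the Hoxa cluster, rose by 1.33 and Hibadh, beyond its 5′ end, fell by 1.32. Skap1, a T cell adaptor gene beside the Hoxb cluster, rose by 2.52, while its other probes, above background on 2 arrays and 1, gave 0.22 and 0.09. Calcoco1, near Hoxc, fell by 0.93, and Hnrnpa3, near Hoxd, rose by 0.73 on 1 of its 7 probes, which ranged from -0.54 to 0.73 and whose mean was not called. Evx1 and Evx2, the homeobox genes at the tail end of the Hoxa and Hoxd clusters, were above background on 0 arrays. Hoxa11as, the only one of 14 cluster non-coding RNA names found on the array, changed by 0.12 (limma adjusted p 0.706).

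Markers of cell types moved with the groups. Of 8 smooth muscle genes, 6 fell (75%, against 9.96% of all names), with a median log2 fold change of -1.84. Their mean log2 ratio lay between 1.62 and 2.85 on the PPE arrays, below every sham array. The log2 of their summed red signal was 19.69 to 20.30 in sham and 17.15 to 17.95 in PPE. All 6 macrophage genes rose, against 13.8% of all names, with a median of 2.16. The log2 of their summed signal went from 14.67 to 15.34 in sham to 16.77 to 17.66 in PPE. The change of Lyz2, 1 of the 6, rests on 4 PPE arrays. None of the markers of these cell types was at 0 arrays. Under median centring 0 smooth muscle genes were called (limma, with 3 lower at an unadjusted p under 0.05), with a median of -0.99, and 1 macrophage gene was, Emr1, with a median of 2.83 over the list, where the median of all names was 0.41.

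Of 4 neutrophil genes, 3 rose (75%, against 13.8% of all names), with a median of 3.18. Their summed signal on the log2 scale was 14.79 to 16.13 in sham and 16.50 to 17.86 in PPE. Of 4 T cell genes, 3 rose (75%), with a median of 1.86 (summed signal 10.81 to 12.30 and 13.08 to 13.85). Of 6 fibroblast genes 2 rose (33.3%, median 0.32) and of 4 mesothelial genes 1 rose (25%, median 0.15), against 13.8% of all names. Of 5 adipocyte genes 1 fell (20%, against 9.96% of all names), with a median of -0.76 (summed signal 18.50 to 18.92 and 16.58 to 17.42). At an unadjusted limma p under 0.05, 3 fibroblast genes and 1 mesothelial gene were higher and 4 adipocyte genes lower. By limma 0 of 6 endothelial (median 0.04), 4 skeletal muscle (-0.19), 4 nerve (0.38) and 3 B cell genes (0.22) were called, where SAM and an unadjusted p under 0.05 each gave 1 endothelial gene, higher, and 0 of the others. Under median centring 2 neutrophil genes and the mesothelial gene Wt1 stayed called, and 0 T cell, fibroblast or adipocyte genes were (limma, with 4, 2 and 0 higher at an unadjusted p under 0.05). The part of these shifts in the Hox changes was not tested.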

How the data were processed

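The 10 arrays carried 62976 spots each, 59305 of them not controls, for 55681 probes and 35527 gene names. The authors scanned them with Agilent Feature Extraction 10.7.3.1. The deposited signal of a spot and of its local background is an unlogged intensity. The authors' value table holds log2 ratios that equalled processed red over processed green signal within a tolerance of 1e-04, and those processed signals served as an alternative. Some arrays of the study were left out by the authors for poor hybridization or as outliers. Which ones, and from which groups, is not given in the sources used here.

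Spot signals were background-corrected in limma 3.58.1 (R 4.3.3) by the normexp method. Its offset was 50, which draws the ratios of dim probes towards 0. Each array was normalized by loess. Repeated spots of a probe were averaged after control and outlier spots had been dropped. A gene stands for its brightest tested probe. PPE and sham were compared for 22520 names with red signal well above background on at least 5 of 10 arrays, and sham was compared with the reference for 24503 names above background in red or in green on at least 3 of 5 sham arrays. The tests were lmFit and eBayes, two-sided and unpaired, with Benjamini-Hochberg adjustment over all names and a threshold of 0.01. The number of arrays limits the precision, and the study's methods give the aorta of 1 mouse for each array. The steps were tested on simulated data. Per the study's methods its own test was SAM, which was written anew with 100 drawn relabellings as an alternative. The other alternatives were median centring, Aquantile, the mean of probes, other filters, slide or replicate as a block, and leaving out arrays.

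Every Hox gene tested is named, with values on every array for those called and for those among the 6 next in adjusted p, apart from 1 Hox gene that is not reported here by name and is left out of the figures. Counts of Hox genes in the text include it. A cofactor gene and a probe sequence are not reported here either. The members and lists were chosen with earlier results of these data known. The CDX motif TTTATG was added after a first search with TTTATNG. Probe positions are those of the files, on mm9, and exons and UTRs on that build were not used here. RefSeq sequences are on GRCm38.p6, and coordinates of the builds were not mixed.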

Additional observations from a re-analysis of the deposited data

Results flagged for a closer look

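In 2 of 68 groups of 5 arrays looked at, 1 array stood apart from the rest of its group by Dixon's criterion, which is met by chance in about 5% of groups. For Hoxa3 in sham, sham 3 lay at a log2 ratio of 1.23 and the next array at 2.0, a gap of 0.768 of the whole range of the group. For Hoxb3 in PPE, PPE 5 lay at 0.47 and the next array at 0.98, a gap of 0.728 of the range. Hoxa3 was called in all 10 fits that left out an array, and Hoxb3 was not called in any.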

How the results depend on the processing

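The counts of Hox genes called between PPE and sham depended on the scaling. Under median centring 0 were called higher and 0 lower (limma, with 3 higher and 0 lower at an unadjusted p under 0.05), and 0 were called higher in sham than in the reference. Over all names that setting called 408 higher and 8 lower, against 3116 and 2243 after loess, and 1626 and 9873 in sham against the reference, in place of 6586 and 6782. SAM called 4875 and 3263 of all names, and 3 and 5 Hox genes. Without a filter, with red above background on all 10 arrays, and with slide as a fixed block, 1 Hox gene was called higher in each, Hoxd8. Leaving out 1 array gave 1 to 3 higher and 3 to 4 lower. From the authors' processed signals 3 were higher and 6 lower. In sham against the reference, leaving out 1 array gave 12 to 14 higher and 6 to 7 lower. The replicate block gave 2 higher and 4 lower Hox genes and changed no call among Hox genes. The correlations of same-numbered arrays, around their group means, were 0.29, -0.30, 0.16, -0.14 and 0.52. They cannot decide whether the numbers pair the arrays, since arrays of different number were not compared. With replicate as a block, Aldh1a1 had a limma adjusted p of 0.0141.

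All PPE changes whose sign turned were not called after loess. Under median centring the PPE change was 0.059 for Hoxa9, 0.19 for Hoxa10, 0.27 for Hoxa11, 0.23 for Hoxb2, 0.29 for Hoxb3, 0.42 for Hoxb4, 0.040 for Hoxb6, 0.44 for Hoxb7, 0.14 for Hoxb9, 0.23 for Hoxc4, 0.56 for Hoxc6 and 0.050 for Hoxc8. From the processed signals it was -0.37 for Hoxa6 and 0.019 for Hoxc8. Leaving out 1 array gave a range of -0.096 to 0.11 for Hoxa6 (negative without sham 5 or PPE 2), -0.099 to 0.11 for Hoxb3 (positive without sham 1 or PPE 5), -0.40 to 0.067 for Hoxb9 (positive without PPE 1) and -0.23 to 0.017 for Hoxc6 (positive without PPE 4). Without both dim arrays, sham 5 and PPE 5, Hoxb3 was at 0.019. The sham ratio under median centring was -0.082 for Hoxa4, -0.34 for Hoxa9, -0.44 for Hoxa10, -0.035 for Hoxb2, -0.077 for Hoxb6, -0.62 for Hoxb7, -0.17 for Hoxb8, -0.10 for Hoxc5 and -0.62 for Hoxd9, of which Hoxa9, Hoxa10, Hoxb2, Hoxb6, Hoxb7 and Hoxc5 were called higher after loess. Hoxd9 was also at -0.13 from the processed signals, -0.019 without both dim arrays and between -0.026 and 0.049 without 1 array (negative without sham 2 or sham 5). The cause was not tested.

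Dim signal limits Hoxd3 and Hoxd10, above background on 6 arrays each, and dyes were not swapped, so a probe's dye bias is part of each ratio to the reference.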
